A study of Homo sapiens with 12 samples.

Results

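Ferritin and the other genes of the iron-responsive element circuit were followed in IMR90, an established line of normal human fetal lung fibroblasts, as the cells went from proliferation to replicative senescence. The genes are FTL, FTH1, EPAS1, SLC40A1, TFRC, ACO1, IREB2, NCOA4 and SLC39A14, 9 of the 38716 gene symbols in the data and of the 16451 with at least 1 read in the coding sequence (CDS). They were chosen by name, with their changes between the states already known, so those changes are given below as a description and without a p-value. Proliferating cells (Pro) were compared with cells passaged continuously until they stopped dividing (Sen), and the labels name no treatment or engineered allele for either state. From each of 3 lysates per state came a Ribo-seq library, which reads the stretches of mRNA shielded by ribosomes, and a library of poly(A)-enriched RNA-seq, 12 libraries in all. The culture notes name a pair of isolates of the line without saying which lysate came from which, so isolate and state cannot be told apart here. Fibroblast identity was checked on fixed markers, of which 10 of 10 stood above 10 CPM in every RNA-seq library, while the summed level of 5 blood and macrophage markers did not exceed 1.83 CPM and that of 5 erythroid markers did not exceed 7.11 CPM. Of 4 endothelial markers 1, TEK, was above 10 CPM, at 53.8 to 105 CPM over the RNA-seq libraries. CDH5 stood at 0, and PECAM1 and VWF did not exceed 0.652 and 0.745 CPM. The sum of the 4, nearly all TEK, was 54.4 to 62.1 CPM in Pro and 93.7 to 106 CPM in Sen, and its part in the results was not tested.

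An iron-responsive element (IRE) is a short hairpin in an mRNA with an unpaired C in its stem and a loop that begins CAGTG. When iron is scarce, the iron regulatory proteins IRP1 (gene ACO1) and IRP2 (gene IREB2) bind it. Bound in the 5′ UTR they keep ribosomes from starting, as on the ferritin mRNAs, and bound in the 3′ UTR of the transferrin receptor TFRC they protect the mRNA from decay. When iron is plentiful, IRP1 takes up an iron-sulfur cluster and works as the cytosolic aconitase, IRP2 is degraded, ferritin is translated and TFRC mRNA is lost.

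The hairpins are what set these mRNAs apart, and they are printed here because the comparison turns on where each lies. The searched motif was CNNNNNCAGTGN, on the mRNA strand alone, with the 5 bases on each side of the loop able to pair, G with T included. In lower case with the bulged C and the loop in capitals, the elements in the 5′ UTR read, 5′ to 3′:
FTL: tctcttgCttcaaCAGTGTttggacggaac
FTH1: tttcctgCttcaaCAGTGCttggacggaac
SLC40A1: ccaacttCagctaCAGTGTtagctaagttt
EPAS1: gtacaatCctcggCAGTGTcctgagactgt

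The files carry no coordinates, so these sequences and places come from GENCODE transcripts on GRCh37. FTL, the ferritin light chain, has its element at chr19:49468591-49468620 on the plus strand, and FTH1, the ferritin heavy chain with the ferroxidase activity, at chr11:61735046-61735075 on the minus strand. SLC40A1, ferroportin, the exporter of cellular iron, has it at chr2:190445387-190445416 on the minus strand. EPAS1, the hypoxia-inducible transcription factor HIF2A, has it at chr2:46524617-46524646 on the plus strand, with 1 stem base unpaired. The loop lies 155 bases before the start codon in FTL, 159 in FTH1, 211 in SLC40A1 and 415 in EPAS1.

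TFRC carries its elements at the other end of the mRNA, and 4 fully paired ones were found in its 3′ UTR, on the minus strand of chromosome 3 between 195777334 and 195777879:
TFRC element 1: taattatCggaagCAGTGCcttccataatt
TFRC element 2: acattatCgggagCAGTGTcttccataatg
TFRC element 3: tctgtatCggagaCAGTGAtctccatatgt
TFRC element 4: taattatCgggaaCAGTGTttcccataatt

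Such hairpins are rare. With a fully paired stem the motif stood in 18 of 19080 5′ UTRs (0.0943%) and 121 of 19085 3′ UTRs (0.634%), and with up to 1 unpaired base allowed it stood in 41 (0.215%) and 308 (1.61%), the fully paired ones included. ACO1, NCOA4 and SLC39A14 had no match in either UTR. IREB2 had none in its 5′ UTR and 1 in its 3′ UTR with an unpaired base. A match is a description of letters and not a measured binding site.

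Levels are given as CPM, reads divided by the library size after TMM scaling within each library type, with mRNA taken over the 5′ UTR, CDS and 3′ UTR reads of RNA-seq and ribosome-protected fragments (RPF) over the CDS reads of Ribo-seq. Translational efficiency (TE) is the ratio of RPF to mRNA, on a log2 scale. RNA-seq libraries held 7902427 to 14144455 reads in these regions, but Ribo-seq libraries held 54421 to 1718521 CDS reads. Pro 1 and Sen 2 were the shallow ones, with 54421 and 54708 CDS reads against at least 583798 in the other 4, so that a floor of 3 counts stood at 52.1 and 52.7 CPM there and at no more than 5.83 CPM elsewhere. The same 2 libraries, and to a lesser degree Sen 3, had few of their assigned Ribo-seq reads in coding sequence (34.4% in Pro 1, 15.0% in Sen 2 and 54.7% in Sen 3, against 77.8% in Sen 1, 84.4% in Pro 2 and 88.8% in Pro 3). Every RPF and TE value below rests on these libraries, and those called for the 9 genes are therefore also given without Pro 1 and Sen 2.

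Ferritin light chain lost mRNA and gained footprints in senescent cells. FTL mRNA stood at 4392, 4528 and 3928 CPM in Pro 1 to 3 and at 3548, 3630 and 3339 CPM in Sen 1 to 3. All 3 Sen lysates lay below all 3 Pro lysates, and in bulk lysates less RNA per cell and fewer cells that make it cannot be told apart. FTL footprints stood at 677, 184 and 187 CPM in Pro and at 597, 1037 and 756 CPM in Sen. The groups overlapped there because of shallow Pro 1, whose value came from 39 reads, while Pro 2 and Pro 3 lay far below every Sen lysate. The log2 fold change of Sen over Pro was -0.29 ± 0.08 (SE, n = 3 lysates per state) for mRNA and 1.70 ± 0.21 for RPF, a fold of 0.819 and 3.26. The RPF fold exceeded the ratio of the plain means (797 ± 223 CPM against 349 ± 284 CPM, SD). In the fit the deep libraries weigh more than the shallow ones, and the part of this in the difference was not tested.

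The TE of FTL was -2.68, -4.62 and -4.39 on the log2 scale in Pro 1 to 3 and -2.57, -1.79 and -2.14 in Sen 1 to 3, so every Sen lysate lay above every Pro lysate, with Pro 1 close to Sen 1. Its log2 TE change was 1.99 ± 0.24, and only 6 of 7473 genes tested had a larger one. Without both shallow lysates it was 2.13 ± 0.15, and the RPF change was 1.85 ± 0.14. In the deep lysates the RPF to mRNA ratio of FTL lay within 3 percentage points of the ratio that the 3′ UTR reads of all genes had. The RPF rise missed the threshold with DESeq2, at a log2 fold change of 1.24 ± 0.67.

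Ferritin heavy chain moved the same way by less. FTH1 mRNA stood at 3445, 3497 and 2844 CPM in Pro and at 2405, 2546 and 2459 CPM in Sen, again with no overlap. FTH1 footprints were 295, 209 and 142 CPM in Pro, the first from 17 reads, and 293, 264 and 276 CPM in Sen. The Sen lysates sat close together at the upper end of the Pro range. Log2 fold changes were -0.40 ± 0.08 for mRNA, 0.69 ± 0.17 for RPF and 1.07 ± 0.22 for TE, and without both shallow lysates 0.77 ± 0.16 for RPF and 1.15 ± 0.15 for TE. One library decided both calls, since without Pro 3 the RPF change fell to 0.34 ± 0.26 and the TE change to 0.86 ± 0.31, neither past the threshold, as also with DESeq2 (0.53 ± 0.30 and 0.95 ± 0.31). On the scale used for FTL, the Ribo-seq to RNA-seq ratio of FTH1 was 5.68% in Pro 2, 4.75% in Pro 3, 10.8% in Sen 1 and 11.4% in Sen 3. That of the 3′ UTR reads of all genes together was 5.42%, 3.68%, 9.07% and 13.9%.

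EPAS1 rose in both layers, and by more in footprints. Its mRNA stood at 883, 954 and 784 CPM in Pro and at 1560, 1447 and 1655 CPM in Sen. Its footprints stood at 139, 135 and 103 CPM in Pro and at 413, 475 and 597 CPM in Sen. Here the shallow lysates lay beside the deep ones of their state, though from only 8 reads in Pro 1 and 27 in Sen 2. Neither layer overlapped. Log2 fold changes were 0.83 ± 0.08 for mRNA, 2.08 ± 0.18 for RPF and 1.22 ± 0.20 for TE, and without both shallow lysates 2.10 ± 0.17 for RPF and 1.19 ± 0.16 for TE. These 3 calls held under every alternative run for EPAS1, with TE changes from 1.04 to 1.38.

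Ferroportin could be followed in mRNA alone. SLC40A1 mRNA was scarce, at 9.28, 8.98 and 6.70 CPM in Pro and 4.47, 4.98 and 4.84 CPM in Sen, with a log2 fold change of -0.79 ± 0.16. Its coding sequence held 0, 1 and 0 Ribo-seq reads in Pro and 6, 1 and 0 in Sen, at or below the floor of 3 counts in every library but Sen 1, and it did not pass the filter on low counts for RPF or TE.

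**Figure D1:**
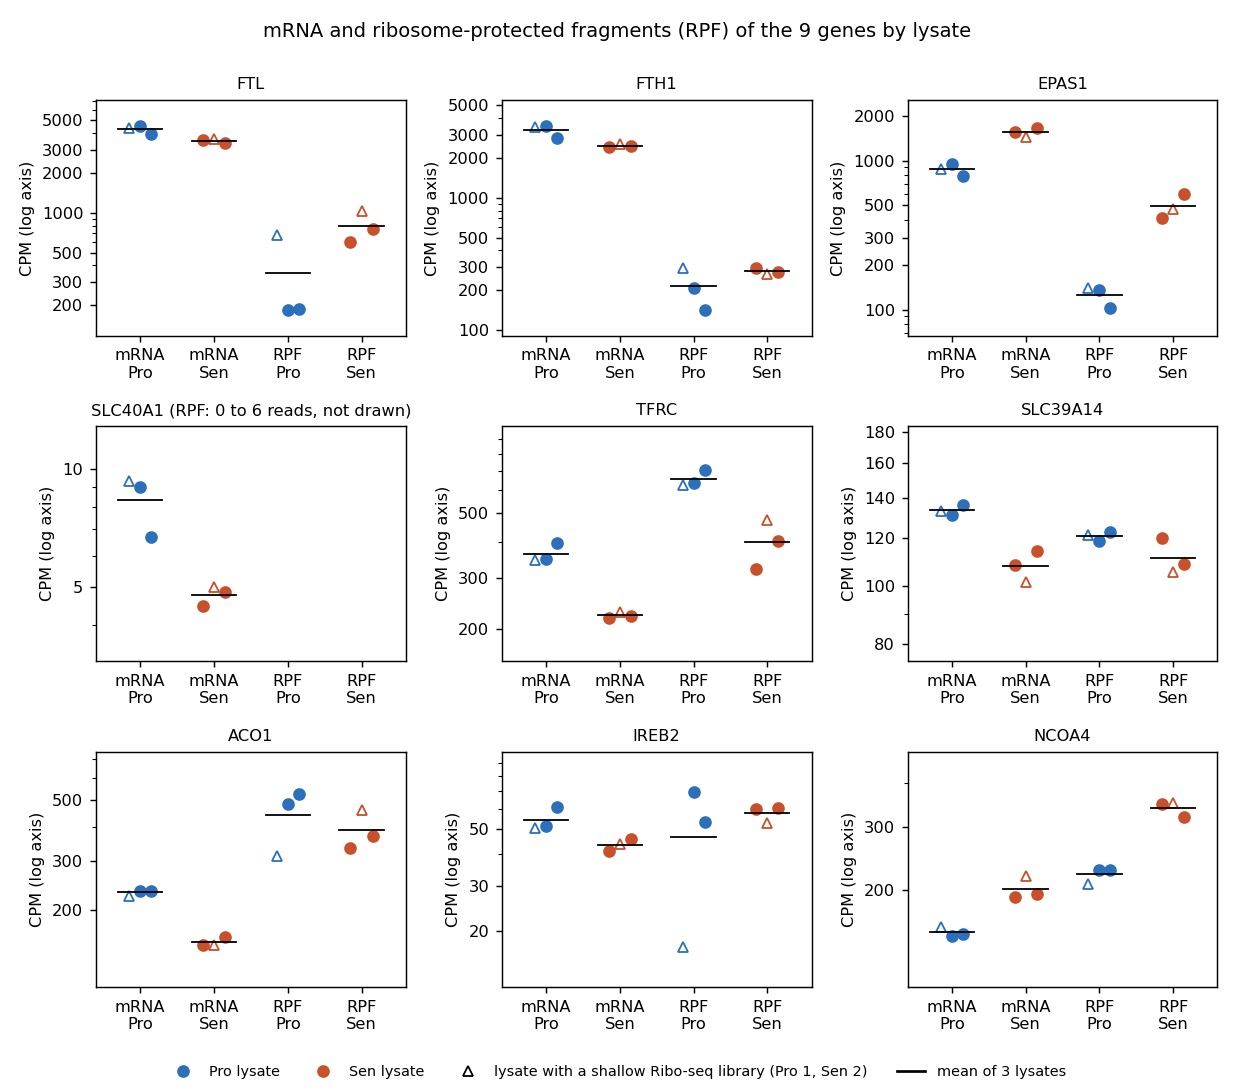
Levels of the 9 genes in CPM (log axis, scaled separately in each panel) for mRNA and RPF in 3 Pro and 3 Sen lysates, with a bar at the mean of 3 and open triangles for the lysates whose Ribo-seq library was shallow. FTL mRNA falls from between 3928 and 4528 CPM to between 3339 and 3630 CPM while its RPF rises in all but Pro 1 (677 CPM), and TFRC falls in both layers.

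TFRC, the receptor that brings transferrin-bound iron into the cell, fell in both layers. Its mRNA stood at 347, 349 and 395 CPM in Pro and at 219, 230 and 222 CPM in Sen. Its footprints stood at 625, 638 and 706 CPM in Pro and at 321, 475 and 400 CPM in Sen. The groups stayed apart in both. Log2 fold changes were -0.70 ± 0.07 for mRNA and -0.86 ± 0.17 for RPF (-0.93 ± 0.13 without both shallow lysates). Its TE was not called, at -0.085 ± 0.16, and took the other sign without Sen 1 (0.080 ± 0.24). SLC39A14, the importer ZIP14 of iron not bound to transferrin, had 133, 131 and 136 CPM of mRNA in Pro and 108, 101 and 114 CPM in Sen, a log2 fold change of -0.31 ± 0.07. Its footprints, 119 to 123 CPM in Pro and 105 to 120 CPM in Sen, were not called (-0.069 ± 0.18).

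Both IRP genes had less mRNA in senescent cells. ACO1 mRNA stood at 225, 234 and 235 CPM in Pro and at 150, 149 and 159 CPM in Sen (log2 fold change -0.60 ± 0.07). Its footprints, 312, 481 and 524 CPM in Pro and 336, 457 and 369 CPM in Sen, overlapped between the states. They were called lower at -0.42 ± 0.16, and at -0.53 ± 0.12 without both shallow lysates. That call was lost without Pro 2 (-0.36 ± 0.24), Pro 3 (-0.24 ± 0.24), Sen 1 (-0.28 ± 0.23) or Sen 3 (-0.41 ± 0.23), and with DESeq2 (-0.34 ± 0.24). IREB2 mRNA stood at 50.5, 51.5 and 60.6 CPM in Pro and at 41.1, 43.8 and 45.6 CPM in Sen (-0.32 ± 0.09). Its footprints, 17.4, 69.8 and 53.1 CPM in Pro and 59.6, 52.7 and 60.3 CPM in Sen, were not called (0.053 ± 0.23), and the lowest of them, in Pro 1, was 1 read.

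NCOA4, the receptor that delivers ferritin to lysosomes for breakdown, rose in both layers. Its mRNA stood at 157, 148 and 150 CPM in Pro and at 190, 219 and 195 CPM in Sen. Its footprints stood at 208, 227 and 227 CPM in Pro and at 349, 352 and 321 CPM in Sen. Neither layer overlapped, and the log2 fold changes were 0.41 ± 0.07 for mRNA and 0.58 ± 0.16 for RPF (0.57 ± 0.13 without both shallow lysates). The TE of ACO1 (0.23 ± 0.16), IREB2 (0.51 ± 0.25), NCOA4 (0.24 ± 0.17) and SLC39A14 (0.25 ± 0.20) was not called.

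**Figure D2:**
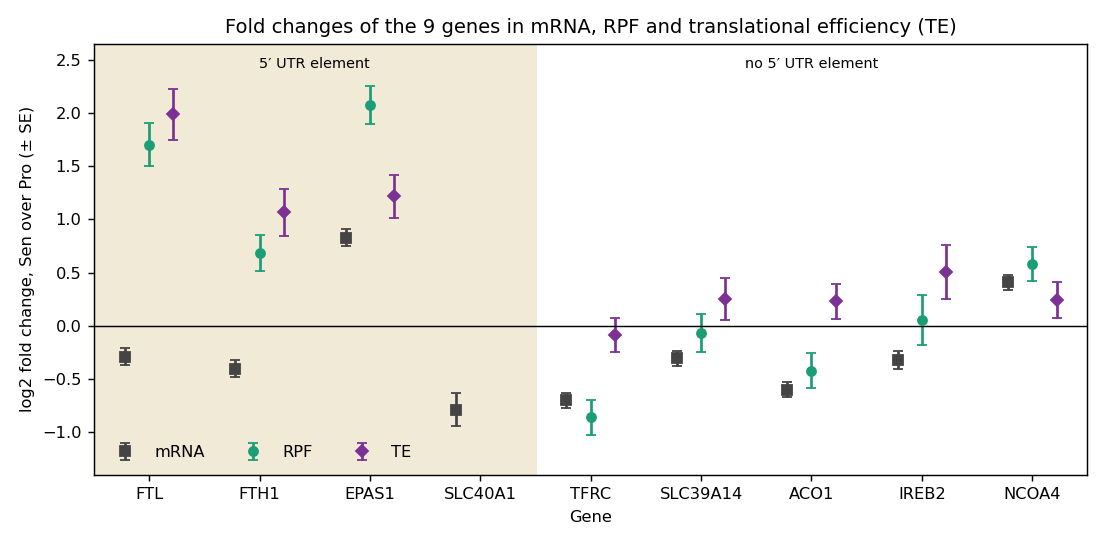
Log2 fold change of Sen over Pro with its SE for each gene in mRNA (squares), RPF (circles) and TE (diamonds), with the genes that carry a 5′ UTR element on the shaded side and SLC40A1 drawn for mRNA alone. The TE change lies between 1.07 and 1.99 for FTL, FTH1 and EPAS1 and between -0.085 and 0.51 for the 5 genes without such an element.

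Set side by side, the TE changes of the 3 measured genes with a 5′ UTR element ran from 1.07 to 1.99 and those of the other 5 from -0.085 to 0.51, on the log2 scale. For ferritin, the level of the 3′ UTR reads of all genes was subtracted in each lysate. The Sen less Pro difference in the RPF to mRNA ratio of the deep lysates then became 1.89 percentage points for FTL and reversed to -1.07 for FTH1. In Pro 2, Pro 3 and Sen 3 that level exceeded the whole FTL ratio, so the subtracted values are a description only. A gene was called at an adjusted p-value under 0.15 in edgeR, the false discovery rate of the study's methods. In TE, 3 of 8 members tested were called higher and 5 were not called, where 6.32% of all genes tested were called higher and 3.73% lower. In mRNA, 2 of 9 were higher and 7 lower, where 73.6% of all genes were called (36.6% higher, 37% lower), and all 9 had groups that did not overlap, where 67.8% of all genes did. In RPF, 4 of 8 were higher, 2 lower and 2 not called, where 54.4% of all genes were called (27.5% higher, 26.9% lower), and 3 had groups that did not overlap, where 32.5% did. The median log2 fold change of the members was -0.32 in mRNA, 0.32 in RPF and 0.38 in TE, where over all genes it was -0.0058, -0.0033 and 0.026. The members were picked for these changes, so nothing is read from their counts. Nor is the split of all TE calls free of scaling. It was 472 higher to 279 lower with TMM, 416 to 378 with RLE factors and 388 to 492 with plain totals. For RPF it was 2066 to 2022 with TMM and 1650 to 2575 with totals, which shifted the median of all genes to -0.14 in RPF and -0.11 in mRNA.

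Ratios within a library do not depend on scaling between libraries. Per codon, FTL had 4.70, 1.25 and 1.15 footprints for each TFRC footprint in Pro 1 to 3 and 8.08, 9.54 and 8.21 in Sen 1 to 3. In RNA-seq CDS reads the same ratio was 103, 109 and 87.5 in Pro and 126, 132 and 118 in Sen. Every Sen lysate lay above every Pro lysate in both library types, by more in footprints. FTH1 had 1.98, 1.36 and 0.836 footprints per codon for each of TFRC in Pro and 3.79, 2.31 and 2.85 in Sen, also apart, while its RNA-seq ratio overlapped (55.6, 53.3 and 37.8 against 55.2, 60.9 and 46.6). EPAS1 had 0.194, 0.185 and 0.127 footprints per codon for each of TFRC in Pro and 1.12, 0.874 and 1.3 in Sen, and its RNA-seq ratio was likewise apart, at 2.57, 2.84 and 2.03 in Pro and 6.85, 6.21 and 7.07 in Sen. Between the ferritin chains, FTH1 had 0.421, 1.09 and 0.728 footprints per codon for each of FTL in Pro and 0.470, 0.242 and 0.348 in Sen, which overlap.

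In both states the ferritin mRNAs stood among those with the fewest footprints for their abundance. FTL coding sequence had 3796 ± 196 RNA-seq CPM per 100 codons in Pro and 3148 ± 154 in Sen (SD, n = 3), against 38.2 ± 2.45 and 25.1 ± 0.300 for TFRC. In footprints it had 200 ± 162 CPM per 100 codons in Pro and 455 ± 127 in Sen, against 86.3 ± 5.72 and 52.5 ± 10.1 for TFRC. Among 6738 genes with at least 100 RNA-seq CDS reads in every library, the share with a lower TE on CDS reads than FTL was 0.61%, 0.12% and 0.10% in Pro 1 to 3 and 0.65%, 3.65% and 1.86% in Sen 1 to 3. For FTH1 it was 0.31%, 0.40% and 0.19% in Pro and 0.74%, 0.70% and 1.47% in Sen. For EPAS1 it ran from 1.23% to 3.25% in Pro and from 5.15% to 14.5% in Sen. TFRC lay at the other end, with 89.9% to 96.9% of genes below it.

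At so low a TE the ferritin footprints have to be read beside the Ribo-seq reads that fall where ribosomes do not elongate. Of all genes together, the ratio of Ribo-seq to RNA-seq reads in the 3′ UTR was 41.6%, 5.42% and 3.68% of the ratio in coding sequence in Pro 1 to 3, and 9.07%, 77.9% and 13.9% in Sen 1 to 3. On the same scale the coding sequence of FTL had 10.4%, 2.54% and 2.81% in Pro and 10.0%, 19.3% and 13% in Sen. FTH1 had 8.09%, 5.68% and 4.75% in Pro and 10.8%, 10.1% and 11.4% in Sen. In the 4 deep lysates, the FTL ratio less the 3′ UTR ratio was -2.88 percentage points in Pro 2, -0.87 in Pro 3, 0.98 in Sen 1 and -0.96 in Sen 3, and the FTH1 ratio less it was 0.26, 1.06, 1.74 and -2.55. Ferritin thus stood near the pooled level of 3′ UTR reads in both states, and that level was higher in the deep Sen lysates than in the deep Pro lysates. It is a sum over all genes, from which single genes can differ. In Sen 1 and Sen 3 the FTH1 3′ UTR held 2 and 0 Ribo-seq reads beside 286.5 and 198 RNA-seq reads. That of FTL held 15 and 4 beside 222 and 227. How far the pooled level holds for ferritin was not tested. With the 3′ UTR ratio subtracted, the mean of the deep Sen lysates less that of the deep Pro lysates went from 8.84 to 1.89 percentage points for FTL and from 5.89 to -1.07 for FTH1. Among the deep lysates, the 3′ UTR ratio exceeded the whole FTL ratio in Pro 2, Pro 3 and Sen 3 and the whole FTH1 ratio in Sen 3. A subtraction that leaves less than nothing cannot measure the part of such reads in the ferritin RPF and TE changes, which was not tested.

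EPAS1 and TFRC stood above that level. EPAS1 had 17.2%, 14.5% and 13.4% of the library coding ratio in Pro and 25.8%, 37.6% and 34.3% in Sen, which in the deep lysates exceeded the 3′ UTR ratio by 9.06 and 9.76 percentage points in Pro 2 and Pro 3 and by 16.7 and 20.3 in Sen 1 and Sen 3. Its difference between the deep Sen and deep Pro lysates went from 16.1 to 9.10 percentage points with that pooled ratio subtracted. The 3′ UTR of EPAS1 itself held 15 and 6 Ribo-seq reads in Sen 1 and Sen 3, beside 4444 and 5520 RNA-seq reads. TFRC had 157% to 268% over the 6 lysates. In both shallow lysates the 3′ UTR ratio exceeded the values of FTL, FTH1 and EPAS1.

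**Figure D3:**
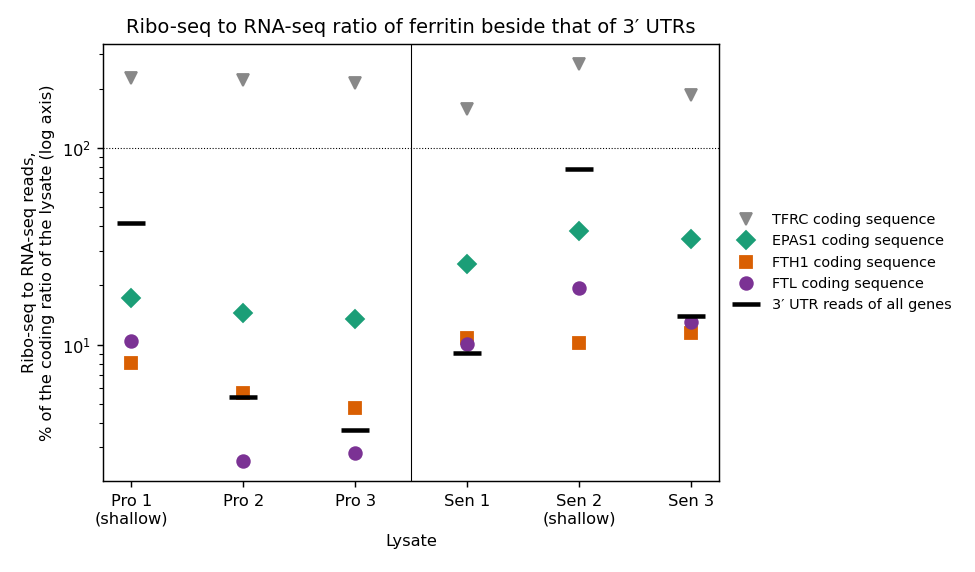
Ratio of Ribo-seq to RNA-seq reads in each lysate, as a percentage of the ratio over all coding sequence (log axis, dotted line at 100), for the coding sequences of 4 genes and for the 3′ UTR reads of all genes (bars). In Pro 2, Pro 3, Sen 1 and Sen 3 the ferritin points lie within 3 percentage points of the 3′ UTR bar, which stands at 5.42%, 3.68%, 9.07% and 13.9%, and EPAS1 lies above it.

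The short ferritin messages also share sequence with many pseudogenes, and how the authors' counting placed such reads is not given in the sources used here. Of the 30-base words in the FTL coding sequence, about the length of a footprint, 58.9% also occur elsewhere in GRCh37, and of those in FTH1 90.2%. For NCOA4 it was 31.5%, for IREB2 0.629%, and for EPAS1, TFRC, ACO1, SLC40A1 and SLC39A14 no word recurred. Of 49-base words, about the length of an RNA-seq read, 32.9% recurred for FTL, 78.2% for FTH1 and 11.5% for NCOA4. Footprints of these genes were thus open to more ambiguity than their RNA-seq reads. Their levels and RPF to mRNA ratios are therefore uncertain where the counting could split reads, and the size of this was not tested. The pseudogene FTH1P3 received reads equal to 46.9% to 57.1% of the FTH1 CDS reads in RNA-seq and to 46.9% to 152% in Ribo-seq, a share that varied more between libraries.

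Footprints in the 5′ UTR, where the element lies, could be read for FTH1 and EPAS1 only. FTL had no read assigned to its 5′ UTR in any library, RNA-seq included, although its CDS held 33121 to 52566 RNA-seq reads, so the assignment itself gave none. FTH1 had 3, 19.7 and 114 5′ UTR footprints in Pro 1 to 3 and 50.5, 15.8 and 90.3 in Sen 1 to 3. As a share of its 5′ UTR and CDS footprints these were 15.0%, 12.4% and 32.4% in Pro and 10.2%, 51.6% and 38.8% in Sen. The states overlapped, and lysates of 1 state differed beyond counting error, with Wilson 95% intervals of 27.7% to 37.4% in Pro 3 and 8.19% to 18.4% in Pro 2. In RNA-seq the FTH1 share was 27.5% to 43.7%. EPAS1 had 0, 11 and 57 5′ UTR footprints in Pro and 84, 2 and 27 in Sen, a share of 0%, 10.8% and 24.8% in Pro and 12%, 6.90% and 8.08% in Sen, where its 0 of 8 in Pro 1 allows up to 32.4%. TFRC had 0% to 0.671% in the 6 libraries. The share with the reads of all genes pooled was 11.6%, 3.77% and 2.82% in Pro and 5.06%, 52.4% and 14.5% in Sen. Over single genes with at least 100 such reads, the median share was 1.70%, 0.787% and 0.730% in Pro and 0.647%, 0.332% and 0% in Sen. It rested on 48 genes in shallow Pro 1 and 59 in shallow Sen 2. FTH1 stood above that median in every library. In RNA-seq the median was 8.10% to 11.9%. The EPAS1 and TFRC shares did not follow the pooled share (6.90% and 0% in Sen 2), and no order between the states was read from shares that differed this much between lysates of 1 state.

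**Figure D4:**
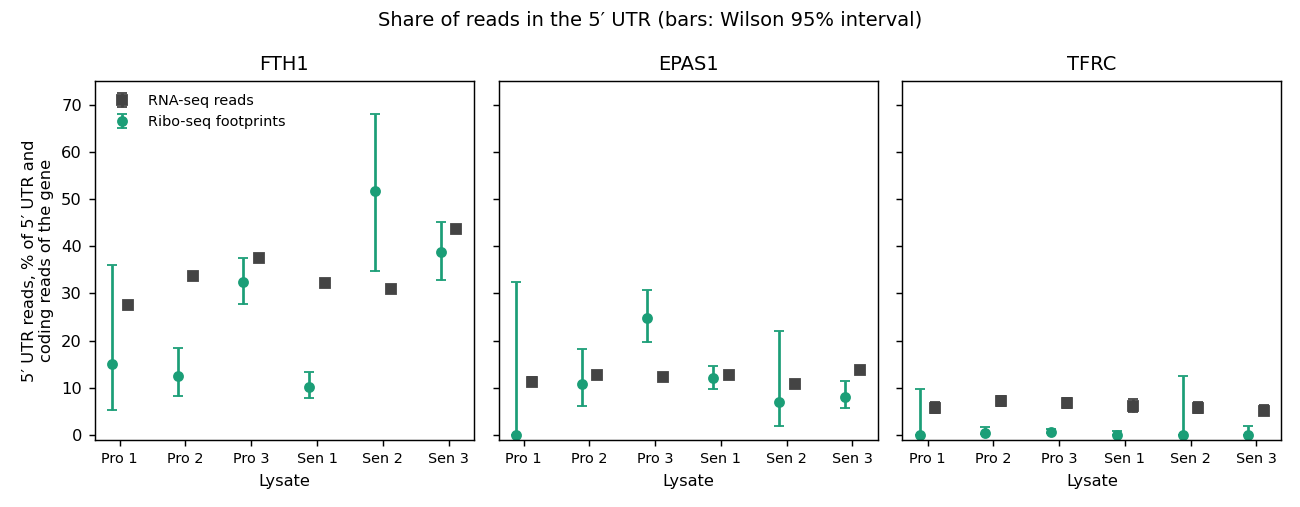
Reads in the 5′ UTR as a percentage of 5′ UTR and coding reads for FTH1, EPAS1 and TFRC in each lysate, for Ribo-seq footprints (circles) and RNA-seq reads (squares), with Wilson 95% intervals that cover counting error only. FTH1 footprints range from 10.2% to 51.6% with both states mixed, while TFRC footprints do not exceed 0.671%.

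Around these genes, 61 further genes of iron uptake and export, heme, iron-sulfur clusters and IRE regulation were counted in the same fits over all genes. In mRNA 21 were higher and 17 lower of 56 tested (67.9% called, against 73.6% of all genes), a split that became 15 to 22 with plain totals. In RPF 9 were higher and 4 lower of 37 tested (35.1%, against 54.4%). In TE 5 were higher and 1 lower of 37 (16.2%, against 10.0%). The TE count was fragile. It was 0 without Pro 2, where 7 had an unadjusted p under 0.05, it was 1 without Pro 3 or without Sen 1, 2 without Sen 2 or without Sen 3, and 0 with DESeq2, where none had an unadjusted p under 0.05. Without both shallow lysates it was 6 of 49.

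In iron transport, CYBRD1, a ferric reductase of the plasma membrane, rose from 181 ± 8.64 to 374 ± 16.3 CPM in mRNA (SD, n = 3) and from 67.0 ± 13.1 to 149 ± 23.7 CPM in RPF. Its log2 fold changes were 1.05 ± 0.07 and 0.88 ± 0.19, with adjusted p-values of 2.54e-11 and 0.000102 in edgeR. STEAP3, the ferrireductase of transferrin endosomes, rose by 0.19 ± 0.08 in mRNA and 0.79 ± 0.21 in RPF (edgeR adjusted p = 0.0344 and 0.00137) and in TE by 0.57 ± 0.22 (edgeR adjusted p = 0.141). HEPH, a ferroxidase that works with ferroportin in iron export, fell from 35.4 ± 1.01 to 0.828 ± 0.392 CPM in mRNA (edgeR adjusted p = 9.27e-17). Its footprints fell from 20.1 ± 4.31 to 1.94 ± 3.37 CPM (edgeR adjusted p = 8.02e-07), which is under the floor of the shallow libraries. PCBP2, an RNA-binding protein that also acts as a chaperone for iron, fell by 0.74 ± 0.07 in mRNA and by 0.35 ± 0.16 in RPF on the log2 scale (edgeR adjusted p = 1.66e-08 and 0.0756), with a TE change of 0.43 ± 0.17 (edgeR adjusted p = 0.138) although its TE groups overlapped.

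Among the genes for heme and iron-sulfur clusters, HMOX1, which breaks down heme and frees its iron, fell in mRNA by 0.63 ± 0.09 on the log2 scale (edgeR adjusted p = 3.68e-06). It was called higher in TE at 1.0 ± 0.32 (edgeR adjusted p = 0.0642), although its TE groups overlapped (0.749 ± 1.15 in Pro against 1.74 ± 1.42 in Sen, SD). Its footprints also overlapped widely (65.5 ± 48.5 against 98.5 ± 97.5 CPM). NUBP2 and CIAPIN1, of cytosolic iron-sulfur assembly, rose in both layers, NUBP2 by 0.30 ± 0.08 in mRNA and 1.19 ± 0.30 in RPF and CIAPIN1 by 0.20 ± 0.08 and 0.40 ± 0.21 (edgeR adjusted p = 0.00191, 0.000989, 0.0385 and 0.121). NUBP2 was also called higher in TE at 0.88 ± 0.32 (edgeR adjusted p = 0.0972), although its TE groups overlapped. ISCU, the scaffold on which clusters are built in mitochondria, was the one list gene called lower in TE, at -0.77 ± 0.30 (edgeR adjusted p = 0.132), with more mRNA (0.43 ± 0.08).

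**Figure D5:**
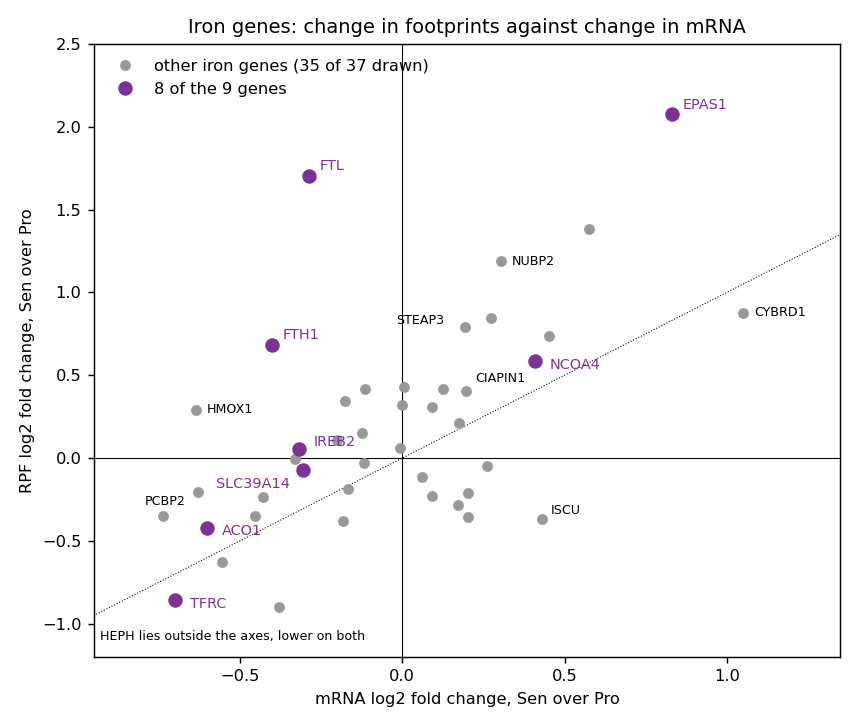
Log2 fold change of Sen over Pro in RPF against that in mRNA for 8 of the 9 genes (purple) and for other iron genes tested in both layers (grey, named ones labelled, 35 of 37 drawn), with a dotted line where both are equal. FTL (-0.29 in mRNA, 1.70 in RPF) and FTH1 (-0.40, 0.69) lie in the upper left, TFRC (-0.70, -0.86) in the lower left and EPAS1 (0.83, 2.08) at the upper right.

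Likeness to ferritin was measured over all 12 libraries as the distance between log2 CPM profiles, each library type centred on its own mean, among 1493 other genes whose RPF counts averaged 100 or more. The 3 nearest to FTL were ETFB, a subunit of the electron transfer flavoprotein, NDUFA6, a subunit of respiratory complex I, and TUFM, the mitochondrial elongation factor, at distances of 1.40 to 1.52 log2 units. The 3 nearest to FTH1 were the ribosomal protein genes RPS14 and RPL28 and GNB2, a G protein subunit, at 0.68 to 0.74. FTL lay further from its neighbours than FTH1. The neighbours were picked on the same values that give the TE changes, so their TE changes are a description only. They were 0.60 ± 0.20 for ETFB, 0.77 ± 0.20 for NDUFA6 and 0.66 ± 0.17 for TUFM, beside 1.99 for FTL. RPS14 had a log2 TE change of 1.11 ± 0.17, RPL28 of 0.83 ± 0.18 and GNB2 of 0.43 ± 0.16, beside 1.07 for FTH1.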

How the data were processed

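Ribo-seq and poly(A) RNA-seq of IMR90 were analysed in 4 groups of 3 replicates (Pro and Sen, each library type), taken from the sample labels. The authors deposited, for each gene symbol, reads assigned to the 5′ UTR, CDS, 3′ UTR and non-coding classes. The deposited unit was read as an expected count, since most values were whole and the rest simple fractions of a read, and values were rounded after regions were summed. Tests planned for plain counts were used on these rounded values. The submitters' notes name cutadapt 1.18, Bowtie 1.0.1, SAMtools 1.8 and DESeq2 1.22.2. The genome build, annotation and strand rule are not given in the sources used here. The proliferating RNA-seq libraries carry a file tag close to DMSO, a solvent that no label names, and whether it was given is unknown.

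Genes with at least 1 CDS read were filtered with filterByExpr and tested with the two-sided quasi-likelihood test of edgeR 4.0.16 (R 4.3.3), with TMM factors and Benjamini-Hochberg adjustment over all genes and a threshold of 0.15. The TE fit used all 12 libraries with the lysate as a block, because RNA and footprints came from parts of 1 lysate, and tested the interaction of library type with state. The correlation across genes between deviations of the pairs was -0.046 to 0.059. TE by lysate adds 0.5 to each count. The study describes the lysates of a state as independently grown biological replicates. Intervals and the floor of 3 counts cover counting error only, since PCR copies are not independent molecules. The scripts were tested on simulated data. Hairpins and repeated words were searched in GENCODE v44 transcripts and the GRCh37 genome. Alternatives were RLE factors, library totals, DESeq2 1.42.0, no filter, each lysate left out, both shallow lysates left out, a replicate block, no block in TE, CDS reads for mRNA, added pseudogene reads and another 5′ UTR denominator. The subtraction of a 3′ UTR ratio, and 5′ UTR shares without the shallow lysates, were chosen after seeing the data. Named genes were the 9 members, listed iron genes called in mRNA and RPF in the same direction without overlap, those called in TE, and the 3 genes most like FTL and FTH1. The members and lists were chosen with earlier results of these data known. One listed gene that these rules name is not reported here.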

Additional observations from a re-analysis of the deposited data

Results flagged for a closer look

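The pseudogene class of the tables, which enters none of the fits above, held reads for FTH1P3, a processed copy of the ferritin heavy chain gene. Its highest value was 13599.5 reads in an RNA-seq library (Pro 2) and 235 in a Ribo-seq library (Pro 3), both above the limit of 3 counts. Over the libraries its reads equalled 46.9% to 57.1% of the FTH1 CDS reads in RNA-seq and 46.9% to 152% in Ribo-seq. FTLP10 and FTH1P18 had at most 1 read in any library.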

How the results depend on the processing

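For the 9 genes, 317 fold changes were recomputed under alternatives, and 302 kept their direction and their side of the threshold, 11 lost the call and 4 changed sign. The sign changed for IREB2 RPF with library totals (-0.086), without Pro 1 (-0.038) and without Pro 3 (-0.10, range with 1 lysate left out -0.10 to 0.21), and for TFRC TE without Sen 1 (0.080, range -0.17 to 0.080), none of them called. The lost calls were FTL RPF with DESeq2, FTH1 RPF and TE with DESeq2 or without Pro 3, and ACO1 RPF in 6 settings, among them the block on replicate number (-0.25). Leaving out 1 lysate gave 4 to 6 of 8 members tested called in RPF, 2 or 3 of 8 in TE and 9 of 9 in mRNA, and DESeq2 gave 3 of 8 in RPF. Nothing is read from these counts, and those over all genes follow. With no filter on low counts SLC40A1, with 8 RPF reads in all, was also called higher in RPF and TE. Over all genes, mRNA calls ran from 8851 of 12899 tested to 9373 of 12917 with 1 lysate left out. RPF calls ran from 2681 of 8066 to 4556 of 8006 with 1 lysate left out and were 1164 of 7521 with DESeq2. TE calls ran from 150 of 7936 (without Pro 2) to 1146 of 7959 (without Pro 1). They were 28 of 7473 with DESeq2, 428 of 13538 with no filter and 1183 of 9151 without both shallow lysates. For the 61 list genes, RPF calls ran from 8 to 13 and TE calls from 0 to 4 with 1 lysate left out. With DESeq2 they were 3 and 0, and TE calls were 2 with no filter. The cause of these losses was not tested.

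Replicate numbers did not pair the states, since deviations of same-numbered lysates correlated at 0.107, -0.210 and 0.248 in mRNA and 0.011 to 0.028 in RPF. A block on that number left 9425 genes called in mRNA, 2336 in RPF and 6 list genes in RPF. Without the lysate block in TE 1339 genes were called.

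With FTH1P3 and other ferritin pseudogene reads added, the FTH1 to FTL ratio per codon rose to 0.737 in Pro and 0.653 in Sen RNA-seq (from 0.487 and 0.431) and to 1.24 and 0.664 in Ribo-seq (from 0.746 and 0.353). In the 4 deep lysates, the RPF to mRNA ratio was higher in Sen by 8.84 percentage points of the library ratio for FTL, 5.89 for FTH1 and 16.1 for EPAS1. It was also higher by 4.03 for ACO1 and 9.95 for NCOA4, and it changed by -46.7 for TFRC. The larger SD between deep lysates of a state was 2.08, 0.660, 6.02, 5.87, 16.9 and 20.6 in that order. With the 3′ UTR ratio of the same lysate subtracted it differed by 1.89, -1.07, 9.10 and -2.93, which reversed FTH1 and ACO1. Depth limits every RPF value of Pro 1 and Sen 2, where 3 counts are 52.1 and 52.7 CPM.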

Other observations

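Beyond the 9 genes, a 5′ UTR with the fully paired hairpin motif was found for 15 genes, of which 7 could be tested for TE. Of 22 further genes whose hairpin had 1 unpaired base, 7 could be tested and edgeR called 0, with 0 at an unadjusted p under 0.05 and 0 by DESeq2. Over all genes tested for TE 10.0% were called, so nothing is read from that count. Of the 7 tested with a fully paired stem, 4 were called higher in both mRNA and RPF (F10, SLC4A4, ENC1 and ZER1) and PRPF18 was called lower in both. Over all genes 36.6% were called higher and 37% lower in mRNA, and 27.5% higher and 26.9% lower in RPF. The named genes were picked for these calls after their values were seen, so they are a description only. F10, coagulation factor X, had log2 fold changes of 2.15 ± 0.13 in mRNA and 1.99 ± 0.35 in RPF, and a TE change of -0.04 ± 0.40. SLC4A4, a sodium bicarbonate cotransporter, had 1.73 ± 0.08 in mRNA and 1.96 ± 0.25 in RPF, and ENC1 had 1.23 ± 0.07 and 1.69 ± 0.21, with TE changes of 0.24 ± 0.29 and 0.54 ± 0.23. ZER1 had 0.51 ± 0.08 in mRNA, 0.78 ± 0.26 in RPF and 0.20 ± 0.26 in TE, and PRPF18 had -0.21 ± 0.09, -0.68 ± 0.34 and -0.44 ± 0.36. None of these TE changes was called.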
